A study of Homo sapiens with 3 samples.

Results

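The let-7 family guide strands are the 9 mature microRNAs (miRNAs) of the family that are cut from the 5p arm of their hairpins: hsa-let-7a-5p, hsa-let-7b-5p, hsa-let-7c-5p, hsa-let-7d-5p, hsa-let-7e-5p, hsa-let-7f-5p, hsa-let-7g-5p, hsa-let-7i-5p and hsa-miR-98-5p, written without the species prefix from here on. They are taken by their names and are 9 of the 1149 mature human miRNAs measured by small RNA sequencing. All 9 are among the 208 that passed the filter used for comparisons. The samples were clones of CAL-27, an established line from a squamous carcinoma of the human tongue. RR stands for radioresistant clones, grown from cells that were given 2 Gy of X-rays a day in 2 cycles of 5 days with 2 weeks of recovery after each. The library labelled Mock came from cells that the design text describes as given a single 2 Gy exposure, and CC from untreated control clones of the parental line. Each group had 1 library, so no difference has a replicate check, no p-value is given, and intervals (95%) cover counting error alone. Whether each library was made from 1 clone or a mixture is not stated. The treatment tags do not match the titles clearly, since RR carries the tag with a 2 Gy dose and Mock the tag for irradiation. Directions therefore refer to the libraries as labelled.

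A miRNA guides an Argonaute protein to messenger RNAs that pair with its seed, the stretch near its 5′ end, and lowers their output. The let-7 family is a large human miRNA family that rises as cells differentiate and represses RAS genes, MYC and HMGA2, which drive growth. The RNA-binding proteins LIN28A and LIN28B block the maturation of most let-7 precursors. Loss of let-7 in carcinomas has been tied to undifferentiated growth, and its members have been studied in the response of tumour cells to radiation.

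The mature sequences are shown because all 9 members share the seed and part by few bases, which bears on how reads are told apart. They are RefSeq entries (GRCh38.p14), each identical to the sequence in the deposited table, with the seed (bases 2 to 8) in capitals.
let-7a-5p: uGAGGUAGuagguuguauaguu
let-7b-5p: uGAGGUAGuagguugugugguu
let-7c-5p: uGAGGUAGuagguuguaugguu
let-7d-5p: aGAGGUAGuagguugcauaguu
let-7e-5p: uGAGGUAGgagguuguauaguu
let-7f-5p: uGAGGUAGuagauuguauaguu
let-7g-5p: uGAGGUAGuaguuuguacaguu
let-7i-5p: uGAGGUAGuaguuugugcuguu
miR-98-5p: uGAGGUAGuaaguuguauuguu

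All are 22 bases long, and 14 positions are the same in all 9 while 8 vary. Counted from 1 at the 5′ end, with the base of let-7a-5p first, let-7c-5p carries A19G, let-7e-5p U9G and let-7f-5p G12A. let-7b-5p carries A17G and A19G, let-7d-5p U1A and U16C, let-7g-5p G12U and U18C, and miR-98-5p G11A and A19U. let-7i-5p is the farthest from let-7a-5p, with G12U, A17G, U18C and A19U. Of the 36 pairs of members, 4 differ by 1 base: let-7a-5p with each of let-7c-5p, let-7e-5p and let-7f-5p, and let-7b-5p with let-7c-5p. The rule for reads that match several members is not known here, which makes the separate levels of these 5 uncertain. The members hold 7 to 10 G or C bases, with let-7f-5p and miR-98-5p lowest at 31.8% and let-7b-5p highest at 45.5%.

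The 9 members come from 12 hairpins on 8 chromosomes (RefSeq, GRCh38.p14; genes from GENCODE release 29). let-7a-5p has 3 sources, MIRLET7A1 at chr9:94175957-94176036, MIRLET7A2 at chr11:122146522-122146593 and MIRLET7A3 at chr22:46112749-46112822. let-7f-5p has 2 sources, MIRLET7F1 at chr9:94176347-94176433 and MIRLET7F2 at chrX:53557192-53557274. MIRLET7A1, MIRLET7F1 and MIRLET7D (chr9:94178834-94178920) lie side by side in an intron of a long non-coding RNA. MIRLET7A3 and MIRLET7B (chr22:46113686-46113768) lie in exonic sequence of MIRLET7BHG, and MIRLET7F2 and MIR98 (chrX:53556223-53556341) in an intron of HUWE1, a ubiquitin ligase gene. MIRLET7A2 lies in an intron of MIR100HG near MIR100, MIRLET7C (chr21:16539828-16539911) in an intron of MIR99AHG near MIR99A, and MIRLET7E (chr19:51692786-51692864) in an intron of SPACA6 beside MIR99B and MIR125A. MIRLET7G (chr3:52268278-52268361) lies in an intron of WDR82, and MIRLET7I (chr12:62603686-62603769) in an intron of a long non-coding RNA, neither with another hairpin within 10000 bases.

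The libraries held 10473400 reads in RR, 10632785 in Mock and 10769990 in CC as recovered from the scale of the table, and listed miRNAs took 20.5% of them in RR, 23.2% in Mock and 16.3% in CC. Levels are given as rpm, reads per 1000000 reads of that total. Abundance and order between miRNAs refer to reads, and whether adapter ligation and PCR captured the different sequences alike was not tested. The 7 squamous epithelial markers examined were all detected, with summed levels of 45262 rpm in RR, 29790 rpm in Mock and 38853 rpm in CC. The lower sum in Mock is that of miR-205-5p, at 29651 rpm in RR, 14174 rpm in Mock and 25945 rpm in CC, whereas each of the other 6 was higher in Mock than in CC. The 6 measured blood markers of 7 summed to 12.3 rpm in RR, 410 rpm in Mock, where miR-486-5p alone had 398 rpm, and 9.56 rpm in CC. miR-451a, which defines red cells, stood at 0.764 rpm in RR, 7.71 rpm in Mock and 0.743 rpm in CC, and 3 of the 6 were at 0 in RR and in CC. Of 2 neuron markers 1 was measured, miR-9-5p, at 224 rpm in RR, 303 rpm in Mock and 170.0 rpm in CC. Summed levels of the muscle and endothelial markers were 409 and 81.9 rpm in RR, 345 and 66.9 rpm in Mock, and 341 and 55.2 rpm in CC. The muscle sum was mostly miR-1-3p, and miR-206, another muscle marker, stood at 3.63 rpm in RR, 25.5 rpm in Mock and 1.76 rpm in CC. The 3 measured mesenchyme markers of 5 summed to 6.49 rpm in RR, 5.64 rpm in Mock and 6.41 rpm in CC. The liver marker stood at 2.96 rpm in RR, 5.45 rpm in Mock and 4.46 rpm in CC. The part that these blood miRNAs, miR-206 or a mixed cell source may have in the Mock values was not tested. In such bulk libraries fewer cells with a miRNA and fewer copies per cell cannot be told apart.

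By reads the let-7 guide strands together were the most abundant seed family in these libraries, and they stood highest in Mock, next in RR and lowest in CC. Summed levels were 57456 rpm in RR (Poisson interval 57311 to 57602), 67108 rpm in Mock (66952 to 67264) and 39129 rpm in CC (39011 to 39247). Of the miRNA reads the family took 28.0% in RR, 29.0% in Mock and 24.1% in CC. When all 1149 miRNAs were summed by their seed, GAGGUAG came first of 973 seeds in every library. The next seed was that of miR-205-5p, known from squamous epithelium, with 14.5% of miRNA reads in RR and 16.0% in CC, and that of miR-21-5p, with 15.9%, in Mock. Beside the 9 members, miR-4458 was the other listed miRNA with this seed, and it had 1 read, in CC.

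All 9 members had ample depth: each had 970 reads or more in every library and ranked among the first 100 miRNAs of each. Depth does not settle the separate levels of the 5 members linked by 1-base differences. let-7c-5p had 0.585, 1.20 and 0.926 reads per 100 of let-7a-5p in RR, Mock and CC. Whether reads of its 1-base neighbours were assigned to it was not tested. let-7a-5p, whose sequence is that of the let-7 miRNA found in the worm, stood at 15839 rpm in RR, 17946 rpm in Mock and 11155 rpm in CC. let-7f-5p stood at 11258 rpm in RR, 18181 rpm in Mock and 7820.2 rpm in CC. Mock was the highest library for both, and let-7f-5p was the leading member there but not in RR or CC. let-7i-5p, from a locus of its own, stood at 12140.3 rpm in RR, 13190.0 rpm in Mock and 7527 rpm in CC, so that RR and Mock were close and CC lower. let-7b-5p had a different order: 8194 rpm in RR, 5188 rpm in Mock and 5670 rpm in CC, with RR highest and Mock lowest.

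Among the members of middle abundance, let-7g-5p stood at 5343 rpm in RR, 7443 rpm in Mock and 3527 rpm in CC, and let-7d-5p at 3706 rpm in RR, 3922 rpm in Mock and 2737 rpm in CC. Both were lowest in CC and highest in Mock, let-7g-5p by a wider margin. A gap followed: let-7d-5p exceeded let-7e-5p, the next member, by 6.99-fold in RR, 7.44-fold in Mock and 7.83-fold in CC. let-7e-5p stood at 530.4 rpm in RR, 527 rpm in Mock and 349.6 rpm in CC, and miR-98-5p at 353 rpm in RR, 495 rpm in Mock and 240.1 rpm in CC. let-7e-5p was alike in RR and Mock, where the intervals overlapped (517 to 545 in RR and 514 to 541 in Mock), while miR-98-5p was highest in Mock. let-7c-5p was the scarcest, at 92.6 rpm in RR (86.9 to 98.6), 215 rpm in Mock (206 to 224) and 103 rpm in CC (97.3 to 110), and was the single member lowest in RR.

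**Figure D1:**
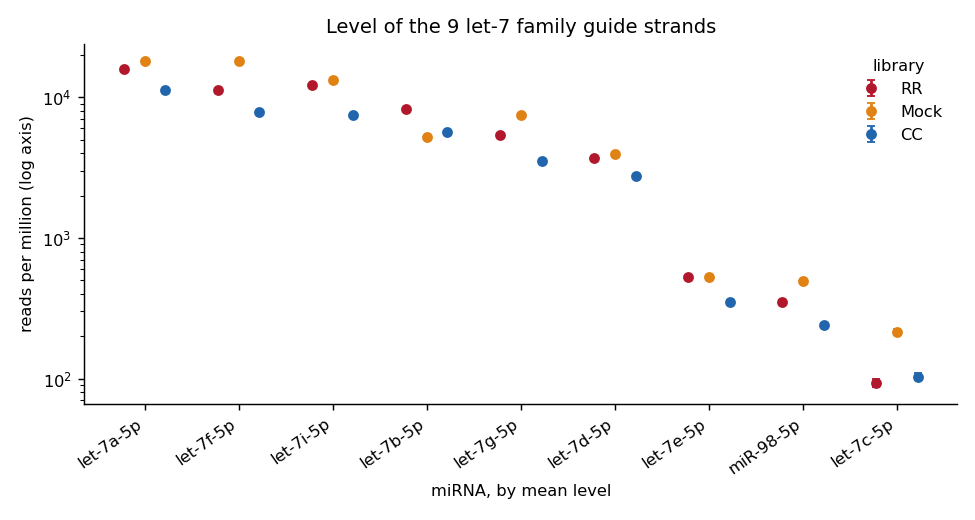
Level of each member in reads per 1000000 (log axis) in the RR, Mock and CC libraries, ordered by mean level, with bars for the 95% Poisson interval, mostly smaller than the point. The 6 most abundant members lie between 2737 and 18181 rpm and the remaining ones between 92.6 and 530.4 rpm, and let-7b-5p alone has its lowest value in Mock.

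The order of the members by level was nearly fixed. let-7a-5p led in RR and CC, and let-7d-5p, let-7e-5p, miR-98-5p and let-7c-5p took the sixth to the ninth place in all 3 libraries. let-7i-5p exceeded let-7f-5p in RR by 1.08-fold, and let-7f-5p exceeded let-7i-5p in CC by 1.04-fold. In Mock let-7f-5p exceeded let-7a-5p by 1.01-fold and let-7g-5p exceeded let-7b-5p by 1.43-fold, whereas let-7b-5p was the higher in RR and CC. Neighbours in each order had Poisson intervals that did not overlap, but with 1 library a group the spread between cultures behind these small steps is unknown.

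RR over CC sets radioresistant clones against untreated ones. Here 8 of 9 members were higher in RR, by similar amounts, and let-7c-5p was lower. The summed family was 1.47-fold higher in RR (1.46 to 1.47). The median log2 ratio of the members was 0.53, where that of the 208 miRNAs that average at least 10 rpm was 0.36, and 182 of the 208 were above 0. No member reached 2-fold, a threshold passed in either direction by 1.44% of the 208. let-7i-5p had the largest ratio, 1.61-fold (1.60 to 1.63), the 18th highest of the 208, and let-7d-5p the smallest of the 8, 1.35-fold (1.33 to 1.37). let-7a-5p, let-7f-5p, let-7b-5p and miR-98-5p lay between 1.42-fold and 1.47-fold, and let-7g-5p and let-7e-5p at 1.51-fold and 1.52-fold. let-7c-5p stood at 0.897-fold (0.822 to 0.979), 202nd of the 208.

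Most miRNAs were higher in RR on the deposited scale, and the size of the family's ratio moved with the scaling. With median-ratio scaling, which brought the median of the 208 from 0.36 to -0.02, the members' median log2 ratio became 0.15, and as a share of miRNA reads it became 0.20 beside 0.03 for the 208. Members above 0 remained 8 of 9 under each of the 4 scalings tried. The median of the 208 was then -0.02 with median-ratio scaling and 0.04 without the 10 most abundant miRNAs. It was 0.03 as a share of miRNA reads and 0.10 as a share of those outside the family. How many of the 208 were above 0 under these scalings was not counted. Scaling moves all miRNAs alike, so the distance between both medians, 0.17, was kept by construction.

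Mock over CC sets a single exposure, as the design text has it, against none. The family differed more here and less evenly. In Mock 8 of 9 members were higher, 4 of them by 2-fold or more, and let-7b-5p was lower. Of the 208 miRNAs, 136 were above 0. Their log2 ratios were less even too, with quartiles of -0.25 and 0.73, against 0.19 and 0.50 in RR over CC. The summed family was 1.72-fold higher in Mock (1.71 to 1.72), and the members' median log2 ratio was 0.81, beside 0.28 for the 208 miRNAs. Of the 208, 12.0% were higher by 2-fold or more. The members past 2-fold were let-7f-5p at 2.32-fold (2.31 to 2.34) and let-7g-5p at 2.11-fold (2.08 to 2.14), followed by let-7c-5p at 2.08-fold (1.94 to 2.24) and, with the least margin, miR-98-5p at 2.06-fold (1.97 to 2.16). The intervals of let-7c-5p and miR-98-5p reach below 2-fold. Next came let-7i-5p, 1.75-fold higher (1.74 to 1.77), then let-7a-5p 1.61-fold, let-7e-5p 1.51-fold and let-7d-5p 1.43-fold. let-7b-5p stood at 0.915-fold (0.905 to 0.926).

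None of the 4 stayed past 2-fold with median-ratio scaling, without the 10 most abundant miRNAs, as a share of miRNA reads or with a linear trend of the ratios on GC content removed. The members' median log2 ratio was then 0.51, 0.46, 0.30 and 0.52, beside -0.01, -0.06, -0.22 and 0.30 for the 208. Fewer of all 208 were higher in Mock by 2-fold or more too: 10, 10, 7 and 15 under these settings, against 25 on the deposited scale. Those lower in Mock by 2-fold or more numbered 18, 19, 34 and 4, against 8. Whether the loss of higher calls differs between members and other miRNAs was not tested.

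RR over Mock compares the repeatedly exposed clones with the Mock library. Here the members parted in direction: 2 had ratios above 1 and 7 below, where 113 of the 208 miRNAs were above. let-7b-5p was higher in RR, 6 members were lower by under 2-fold, and let-7c-5p was lower by more. let-7e-5p was barely above 1, with an interval that includes 1. How many of the 208 had intervals that exclude 1 was not counted, and that of let-7d-5p did so at 1.06-fold. let-7b-5p was 1.58-fold higher in RR (1.56 to 1.60). let-7c-5p was 2.32-fold lower (2.15 to 2.50), the single member past 2-fold, where 4.81% of the 208 were lower by 2-fold or more. With a linear GC trend removed its log2 ratio was -0.91, no member was past 2-fold, and 7 of the 208 were lower by 2-fold or more. let-7f-5p was 1.61-fold lower in RR (1.60 to 1.63), miR-98-5p 1.40-fold, let-7g-5p 1.39-fold, let-7a-5p 1.13-fold, let-7i-5p 1.09-fold and let-7d-5p 1.06-fold. let-7e-5p had a ratio of 1.01 (0.969 to 1.04). The summed family had a ratio of 0.856 (0.853 to 0.859), and the members' median log2 ratio was -0.18, beside 0.06 for the 208. With the GC trend removed these medians were 0.18 and 0.10, so that the direction of the members' median turned. Of the 6 members lower by under 2-fold, let-7a-5p, let-7d-5p, let-7i-5p and miR-98-5p then stood above 0. Their log2 ratios were 0.26, 0.22, 0.18 and 0.095. As a share of miRNA reads let-7d-5p and let-7i-5p stood above 0, at 0.094 and 0.056.

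**Figure D2:**
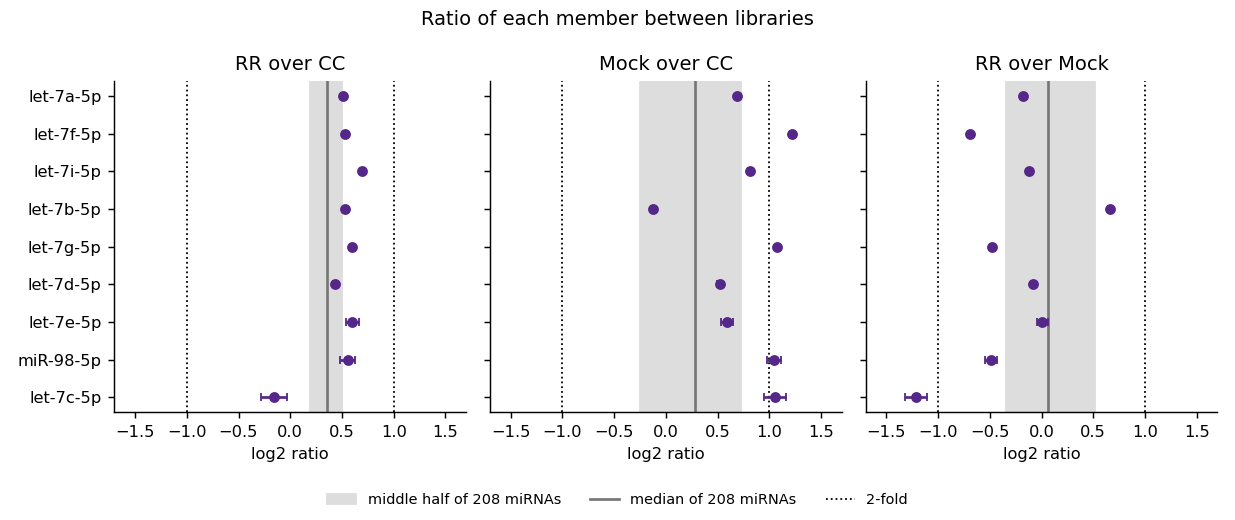
Log2 ratio of each member in RR over CC, Mock over CC and RR over Mock, from the deposited values, with bars for the exact 95% counting interval. The grey band spans the quartiles of the 208 miRNAs, the grey line their median, and dotted lines mark 2-fold; in RR over CC 8 members stand together between 1.35-fold and 1.61-fold with let-7c-5p apart, while in Mock over CC they spread between 0.915-fold for let-7b-5p and 2.32-fold for let-7f-5p.

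The make-up of the family, each member as a share of the family's reads, does not depend on the library total. By this measure RR and CC were nearly alike, and Mock had more let-7f-5p and less let-7b-5p. let-7f-5p gave 19.6% of the family in RR, 27.1% in Mock (Wilson interval 27.0% to 27.2%) and 20.0% in CC. let-7b-5p gave 14.3% in RR, 7.73% in Mock (7.67% to 7.79%) and 14.5% in CC. The share of let-7b-5p in Mock was thus 0.534 times that in CC (0.527 to 0.540), and that of let-7f-5p 1.36 times (1.34 to 1.37). let-7a-5p was close in all 3 libraries, at 27.6% in RR, 26.7% in Mock and 28.5% in CC.

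The RR shares of let-7a-5p, let-7b-5p, miR-98-5p, let-7f-5p, let-7g-5p and let-7e-5p were 0.967 to 1.03 times their CC shares. let-7i-5p took 21.1% of the family in RR and 19.2% in CC, 1.10 times as much (1.09 to 1.11), and let-7d-5p 6.45% in RR and 6.99% in CC, 0.922 times (0.908 to 0.936). let-7c-5p stood out, with 0.161% of the family in RR and 0.264% in CC, 0.611 times (0.560 to 0.666). In Mock its share was 0.320%, 1.21 times that in CC (1.13 to 1.30). let-7g-5p and miR-98-5p took 1.23 times and 1.20 times their CC share in Mock, and let-7e-5p and let-7d-5p 0.879 and 0.836 times.

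**Figure D3:**
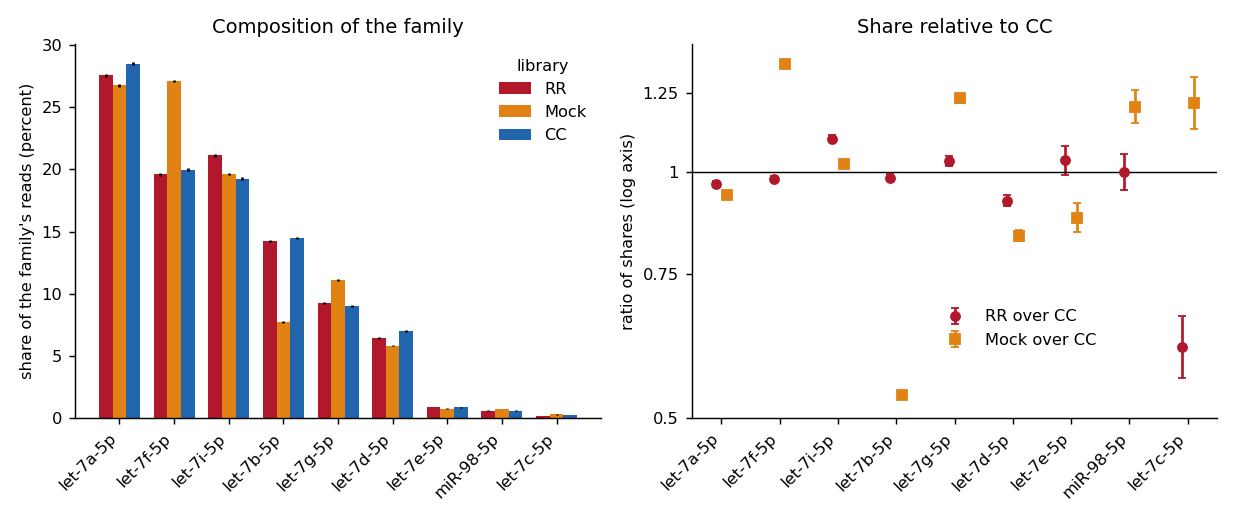
Left, share of each member in the family's reads (percent) in RR, Mock and CC, with Wilson 95% intervals; right, the ratio of these shares in RR over CC and Mock over CC on a log axis, with exact 95% intervals. The RR shares lie within 0.922 and 1.10 of those in CC but for let-7c-5p at 0.611, and the Mock shares run between 0.534 for let-7b-5p and 1.36 for let-7f-5p.

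Members that differ by 1 base can also be set against each other directly. let-7f-5p, which differs from let-7a-5p by G12A, had 71.1 reads per 100 of let-7a-5p in RR, 101 in Mock and 70.1 in CC. let-7e-5p, with U9G, had 3.35 per 100 of let-7a-5p in RR, 2.94 in Mock and 3.13 in CC. let-7c-5p had 0.585 per 100 of let-7a-5p in RR, 1.20 in Mock and 0.926 in CC. Per 100 reads of let-7b-5p it had 1.13 in RR, 4.14 in Mock and 1.82 in CC. let-7f-5p over let-7a-5p was thus close in RR and CC and higher in Mock, and let-7c-5p was far scarcer than either of its 1-base neighbours in every library. Counted as one group, let-7a-5p, let-7b-5p, let-7c-5p, let-7e-5p and let-7f-5p were 1.43-fold higher in RR than in CC (1.42 to 1.44) and 1.68-fold higher in Mock than in CC (1.67 to 1.68), and gave 62.5% of the family in RR, 62.7% in Mock and 64.1% in CC.

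The members' ratios to CC were set beside their base composition, because ratios involving Mock follow GC content across miRNAs. Over the 199 filtered miRNAs outside the family, the log2 ratio Mock over CC fell by 0.28 for each 10 percentage points of GC, while RR over Mock gained 0.31 and RR over CC 0.03. Within the family the Spearman correlation of GC content with Mock over CC was -0.72, over 9 members that share the same libraries and seed, and with RR over CC it was 0.00. Both members of lowest GC content, let-7f-5p and miR-98-5p, had a median log2 ratio Mock over CC of 1.13, and the 8 other miRNAs within 2.5 percentage points of them 0.78. let-7b-5p, with the highest GC content, had -0.13 where the 40 other miRNAs of like content had a median of 0.50. With the trend of the other miRNAs removed, log2 ratios of Mock over CC were 0.78 for let-7c-5p, 0.70 for let-7f-5p, 0.68 for let-7g-5p, 0.54 for let-7i-5p, 0.52 for miR-98-5p, 0.32 for let-7e-5p, 0.29 for let-7a-5p, 0.25 for let-7d-5p and -0.27 for let-7b-5p. The spread between let-7f-5p and let-7b-5p was smaller than before but kept its direction. The part of base composition in these differences, beyond this linear correction, was not tested.

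**Figure D4:**
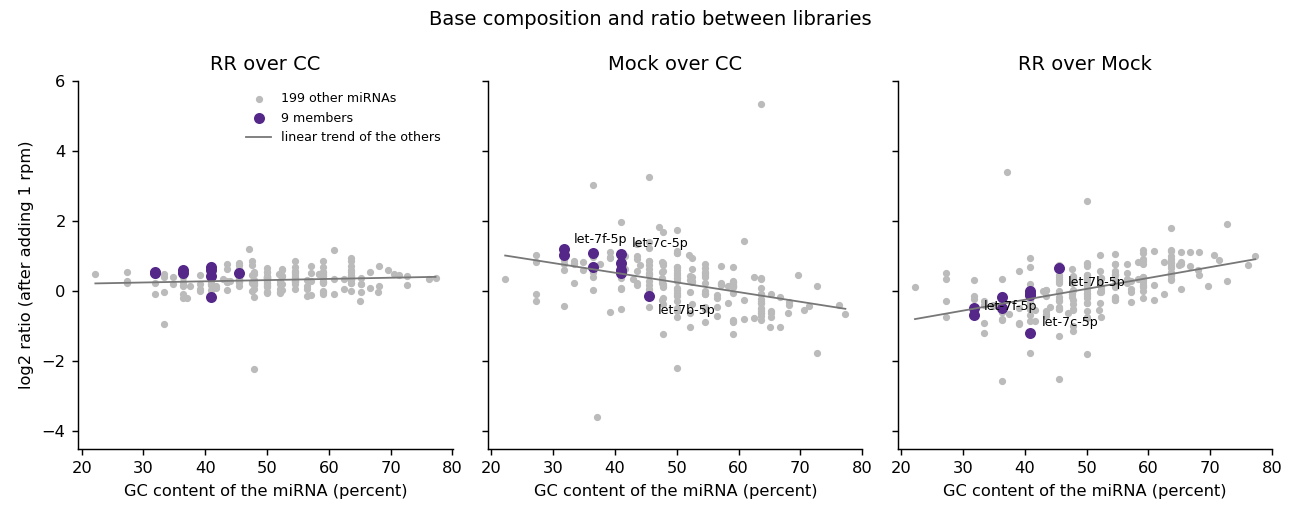
Log2 ratio (after adding 1 rpm) against GC content of the miRNA (percent) in RR over CC, Mock over CC and RR over Mock, for the 9 members and the 199 other filtered miRNAs, with the linear trend of these others drawn in grey. The trend is close to flat in RR over CC and falls by 0.28 per 10 percentage points in Mock over CC, where let-7b-5p lies farthest below the line of the 9 members.

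The hairpins' other arms, the 3p strands, were far scarcer. The 10 listed 3p strands of the family summed to 1789 rpm in RR, 1086 rpm in Mock and 1559 rpm in CC. Guide strands thus had 32.1 times as many reads in RR, 61.8 times in Mock and 25.1 times in CC. let-7d had the most even arms and let-7b the next most abundant 3p strand. Both 3p strands are shown as the most abundant ones. Their ratios in Mock over CC were below 1, at 0.682 (0.664 to 0.700) and 0.601 (0.564 to 0.639), and below those of their guides. The sum is mostly let-7d-3p. The other filtered 3p strands, let-7f-1-3p and let-7e-3p, had Mock over CC ratios above 1, of 1.89 (1.56 to 2.30) and 1.33 (1.10 to 1.61). These too lay below those of their guides, 2.32 for let-7f-5p and 1.51 for let-7e-5p. A ratio below that of the guide is therefore not particular to let-7d-3p and let-7b-3p. The seed of both printed strands is again in capitals.
let-7d-3p: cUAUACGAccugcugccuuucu
let-7b-3p: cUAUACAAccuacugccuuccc

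let-7d-5p had 2.52 reads per read of let-7d-3p in RR (2.47 to 2.56), 4.59 in Mock (4.49 to 4.70) and 2.18 in CC (2.14 to 2.23). let-7d-3p stood at 1473 rpm in RR, 854 rpm in Mock and 1253 rpm in CC, so it was lowest in Mock, where its guide was highest. let-7b-5p had 33.0 reads per read of let-7b-3p in RR, 34.3 in Mock and 22.5 in CC. Its 3p strand stood at 248 rpm in RR, 151 rpm in Mock and 251 rpm in CC. Both arms of let-7b were thus lower in Mock than in CC. Both 3p strands have a GC content of 50.0%, above that of any guide strand, and the part of this in the Mock values was not tested.

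Some hairpins share a primary transcript with other miRNAs, and the values of these partners are set beside those of their let-7 neighbour. miR-99a-5p, beside let-7c, was 1.32-fold higher in RR than in CC (1.23 to 1.41), where let-7c-5p was lower, and 2.23-fold higher in Mock than in CC, where let-7c-5p was 2.08-fold higher. miR-99b-5p and miR-125a-5p, beside let-7e, were 1.19-fold and 1.17-fold higher in RR than in CC, against 1.52-fold for let-7e-5p, and 0.858-fold and 1.02-fold in Mock over CC, against 1.51-fold. miR-100-5p and miR-125b-5p, of the let-7a-2 locus (miR-125b-5p is made beside let-7c as well), were both 1.33-fold higher in RR than in CC, and 1.53-fold and 1.07-fold in Mock over CC. Members of 1 locus also differed: in Mock over CC the neighbours let-7f-5p and let-7d-5p of chromosome 9 stood at 2.32-fold and 1.43-fold, though let-7f-5p is also made on chromosome X.

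The miRNAs outside the family whose pair of log2 ratios, RR over CC and Mock over CC, came nearest to that of the summed family (0.55 and 0.78) were miR-24-3p, miR-185-5p, miR-22-3p, miR-27a-3p and miR-9-5p. They were taken from 84 with a mean of 100 rpm or more, by Euclidean distance over these 2 ratios, which rest on the 3 libraries. miR-24-3p lay 0.04 away, with 1364 rpm in RR, 1541 rpm in Mock and 906 rpm in CC. The other 4 lay 0.08 to 0.17 away.

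**Figure D5:**
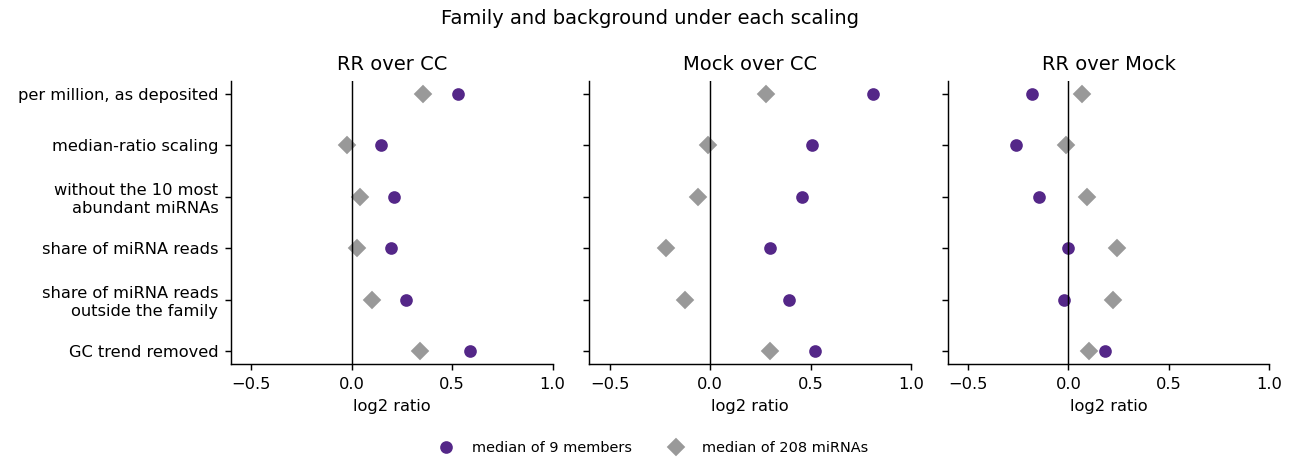
Median log2 ratio of the 9 members and of the 208 filtered miRNAs in RR over CC, Mock over CC and RR over Mock, under the deposited scale, 4 other scalings and with a linear GC trend removed. The members' median lies above that of the 208 in RR over CC and in Mock over CC under each of these. With the deposited scale the distance is 0.17 in RR over CC and 0.53 in Mock over CC. In RR over Mock the members' median lies below except with the GC trend removed. The 4 scalings move all miRNAs alike, so they keep this order by construction, and only the GC correction could alter it.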

How the data were processed

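Small RNA libraries were made by adapter ligation and size selection after PCR, per the labels' protocols. Per the submitters' processing notes, Bowtie and GRCh38 were used, their role and version unstated; trimming, the miRNA reference and the handling of multi-matching reads are not given in the sources used. The deposited table, called TPM by the authors, behaves as RPM: 100% of values in each library were whole multiples, within 0.01 of a read, of 1 step, so whole reads and totals were recovered. No molecular identifiers are mentioned, so PCR copies count as reads. Columns were matched to libraries by the treatment tag.

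Levels carry exact Poisson intervals, shares Wilson intervals, and ratios exact limits by the Clopper-Pearson method. Log2 ratios were taken after adding 1 rpm, over miRNAs averaging at least 10 rpm; called means 2-fold or more. With 1 library per group no test or count model was run. The GC correction subtracts the linear trend of the 199 other miRNAs, centred on their mean GC content. The text names the 9 members, their 3p arms, cluster partners, carriers of the same seed, cell type markers and the 5 miRNAs nearest in pattern. Members and lists were chosen with earlier results of these data known. Computation was tested on simulated reads and used scipy 1.17.1, pandas 2.3.3 and numpy 2.4.6 under Python 3.11.15, with plots by matplotlib 3.10.9.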

Additional observations from a re-analysis of the deposited data

How the results depend on the processing

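No paired analysis was possible because each group had 1 library, and for the same reason no library could be left out. In RR over CC the members' median log2 ratio and that of the summed family were 0.15 and 0.17 with median-ratio scaling, 0.21 and 0.24 when the 10 most abundant miRNAs were left out of the total, 0.20 and 0.22 per miRNA read, 0.27 and 0.30 per miRNA read outside the family, and 0.59 and 0.60 with the GC trend removed. In Mock over CC these pairs were 0.51 and 0.48, 0.46 and 0.43, 0.30 and 0.27, 0.39 and 0.36, and 0.52 and 0.41. In RR over Mock they were -0.26 and -0.31, -0.15 and -0.19, -0.0046 and -0.048, -0.024 and -0.068, and, with the GC trend removed, 0.18 and 0.17, a change of direction. Without that trend let-7a-5p (0.26), let-7d-5p (0.22), let-7i-5p (0.18) and miR-98-5p (0.095) also changed direction in RR over Mock. Per miRNA read let-7d-5p (0.094) and let-7i-5p (0.056) did so too, and per read outside the family they stood at 0.074 and 0.037. Members past the threshold numbered 3 in RR over CC, 7 in Mock over CC and 3 in RR over Mock at 1.5-fold, where 30, 96 and 76 of the 208 miRNAs did, and 0 in each at 4-fold, where 1, 5 and 5 of the 208 did. At 2-fold the 4 members of Mock over CC became 0 under each of the 4 scalings and with the GC trend removed, while the 25 of the 208 higher in Mock became 10, 10, 7, 10 and 15. The 1 member lower in RR over Mock became 0 with that trend removed, while the 10 of the 208 became 7. Pseudocounts of 0.1 and 10 and filters at a mean of 1 or 100 rpm or none kept the count in each comparison but for Mock over CC with a pseudocount of 10, where it was 3. In that order, all miRNAs higher in Mock than in CC numbered 27 and 13 of 208, 44 of 390, 11 of 93 and 46 of 1149. Those lower in RR than in Mock numbered 10 and 8 of 208, 19 of 390, 5 of 93 and 24 of 1149. In RR over CC, either way, they numbered 3 and 1 of 208, 7 of 390, 0 of 93 and 8 of 1149. Merging members 1 base apart took the share of the leading group to 62.5% in RR, 62.7% in Mock and 64.1% in CC, against 27.6%, 27.1% and 28.5% for the leading member. Scalings move all miRNAs alike; beyond that the cause of these shifts was not tested. Depth limits none of the members, but the 3p strands of let-7c, let-7i and miR-98 had 8 to 22 reads a library.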
